A study of Mus musculus with 6 samples.

Results

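The splicing factor and hnRNP genes are the 65 protein coding genes of the deposited table whose symbols begin with Srsf and a digit, Hnrnp, Sf3a, Sf3b, Snrp or Prpf, out of 21139 genes in all. They form 5 families by symbol: 11 Srsf genes for serine and arginine rich (SR) proteins, 20 Hnrnp genes for proteins of heterogeneous nuclear ribonucleoproteins, 9 Sf3a and Sf3b genes for the SF3 complex, 12 Snrp genes for proteins of small nuclear ribonucleoproteins (snRNPs), and 13 Prpf genes for pre-mRNA processing factors. One further symbol, Hnrnpa1l2-ps, names a pseudogene and was left out. RNA was sequenced from CD4+ T cells of C57BL/6J mouse spleen that were stimulated for 2 days with antibodies to CD3 and CD28, which stand in for antigen and co-stimulation. Both groups were activated, so resting cells were not compared, and the sources used here do not give a vehicle. The labels name no separate mice or cultures for the 3 libraries of a group, and p-values therefore cover only the spread among these libraries, which could be technical in origin. The medium group (n = 3) had medium alone, and the CpdA group (n = 3) had CpdA, an agonist of the fatty acid receptor Gpr120, at a labelled dose of 20 with a unit read here as micromolar. The design asks which genes differ in expression between cells that had the agonist and cells that did not.

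Introns are removed from pre-mRNA by the spliceosome, which is built anew on each intron from snRNPs and many other proteins. The U1 snRNP pairs with the start of the intron, the U2 snRNP with its SF3 proteins settles at the branch point, and the tri-snRNP of U4, U6 and U5 then joins and is rearranged into the active enzyme. SR proteins mostly bind exons and favour their inclusion, hnRNP proteins often oppose them, and T cells change the splicing of many transcripts, Ptprc (CD45) among them, when they are activated. A gene-level count gives the amount of a factor's transcripts and says nothing of its protein, its phosphorylation or the splicing it carries out.

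Promoters are shown for 3 SR protein genes that rose together and for 3 SF3 genes, of which Sf3a2 and Sf3b3 rose and Sf3b1 fell. Each run is the 250 bases before the RefSeq start of the gene on build GRCm38.p6, read 5′ to 3′ on the gene's strand. Capitals mark the letters GGGCGG (GC box), CCGGAAG (an ETS family motif), CCAAT and TATAAA on either strand.
Srsf7, chr17:80207306-80207555, minus strand: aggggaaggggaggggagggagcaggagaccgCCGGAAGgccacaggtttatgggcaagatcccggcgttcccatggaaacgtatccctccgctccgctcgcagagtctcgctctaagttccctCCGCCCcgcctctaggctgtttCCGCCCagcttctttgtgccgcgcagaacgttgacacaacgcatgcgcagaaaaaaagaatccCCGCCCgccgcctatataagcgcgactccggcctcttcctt
Srsf6, chr2:162931258-162931507, plus strand: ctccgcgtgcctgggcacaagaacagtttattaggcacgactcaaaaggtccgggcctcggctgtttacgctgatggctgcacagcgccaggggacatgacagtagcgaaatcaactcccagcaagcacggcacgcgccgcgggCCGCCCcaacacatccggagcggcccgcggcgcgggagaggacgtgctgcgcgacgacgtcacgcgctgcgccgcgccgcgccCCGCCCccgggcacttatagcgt
Srsf3, chr17:29032410-29032659, plus strand: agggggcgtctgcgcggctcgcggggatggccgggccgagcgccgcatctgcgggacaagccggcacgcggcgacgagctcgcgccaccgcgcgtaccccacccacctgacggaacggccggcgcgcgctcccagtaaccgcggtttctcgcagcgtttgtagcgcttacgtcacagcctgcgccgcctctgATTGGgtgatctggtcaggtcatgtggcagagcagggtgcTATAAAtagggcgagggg
Sf3a2, chr10:80798485-80798734, plus strand: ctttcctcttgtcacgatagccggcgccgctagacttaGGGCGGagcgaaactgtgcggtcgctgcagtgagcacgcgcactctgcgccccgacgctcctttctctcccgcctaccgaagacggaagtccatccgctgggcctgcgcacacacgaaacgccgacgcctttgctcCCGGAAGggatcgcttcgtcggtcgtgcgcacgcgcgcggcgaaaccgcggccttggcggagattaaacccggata
Sf3b3, chr8:110846804-110847053, minus strand: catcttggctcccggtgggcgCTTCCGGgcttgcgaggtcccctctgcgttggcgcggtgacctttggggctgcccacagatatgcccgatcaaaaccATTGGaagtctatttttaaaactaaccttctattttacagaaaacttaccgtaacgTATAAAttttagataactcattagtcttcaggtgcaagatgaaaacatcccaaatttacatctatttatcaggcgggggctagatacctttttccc
Sf3b1, chr1:55027479-55027728, minus strand: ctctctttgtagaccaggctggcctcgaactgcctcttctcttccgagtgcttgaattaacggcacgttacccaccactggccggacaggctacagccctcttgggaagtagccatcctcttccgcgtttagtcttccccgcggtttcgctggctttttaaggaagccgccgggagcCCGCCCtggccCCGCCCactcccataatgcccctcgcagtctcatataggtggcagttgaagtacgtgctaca

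RefSeq promoters were matched for 57 of the 65 genes, including all 11 Srsf genes. Those without an entry included Snrpd1, Hnrnpll, Snrpb, Prpf18, Sf3b4, Hnrnpul2 and Sf3b5. The GC box was in 66.7% of the matched promoters and in 32.7% of all 32851 promoters of the same length, and it was in 10 of the 11 Srsf promoters. CCGGAAG was in 29.8% of the matched promoters and 6.91% of all promoters, and 6 of the 7 matched SF3 promoters held it. The SF3 promoter without these letters in its window was that of Sf3b1, from which nothing is drawn. Sf3a1 and Sf3b2 held the letters and did not pass the test of expression described below. CCAAT was in 45.6% against 33.8%, TATAAA in 8.77% against 12.4%, the E-box CACGTG in 8.77% against 6.02%, and the palindromic form of the NRF1 motif in 0% against 0.782%. The matched promoters had a median GC content of 59.6%, against 52.4% for all promoters, and a median of 19 CG dinucleotides against 6. The motif shares were not adjusted for either. Each matched gene had a single promoter, the nearest to its deposited start. The set of all promoters was not limited to a single entry per gene or to genes expressed here. The sets are thus unlike, and these shares cannot single out splicing genes.

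The libraries held 20247761 to 25952169 counts, and the 65 genes took 1.71% to 1.74% of them in medium and 1.84% to 1.86% with CpdA. Libraries of a group differed by more than sampling noise (chi-square divided by its degrees of freedom 2.18 to 4.18, and 10.8 to 18.7 between groups). The 8 markers of CD4 T cells summed to between 2425.8 and 2473.8 CPM (counts scaled to the library total) in medium and between 2330.7 and 2373.9 CPM with CpdA, and 6 of them fell and 1 rose. That difference had an exact two-sided permutation p of 0.1, the smallest that 3 libraries against 3 can give. Markers of other cells were low: B cell markers summed to at most 32.4 CPM, CD8 markers to 9.40, NK markers to 1.78 and erythroid markers to 1.23. Of the B cell markers 1 rose. The myeloid markers summed to between 0.72 and 1.01 CPM in medium and between 0.42 and 0.63 CPM with CpdA (exact permutation p = 0.1), 1 of them fell, and Adgre1, S100a8 and S100a9 gave no value here. The dendritic cell list averaged 40.3 CPM in medium and 52.5 CPM with CpdA (exact permutation p = 0.1), and most of it was Batf3, at a mean of 39.4 CPM over all libraries. The part of any of these shifts in the results below was not tested, and in a bulk sample fewer cells of a type and less RNA per cell cannot be told apart.

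All 65 genes passed the filter on low counts and entered the test, which was run on all 13507 genes that passed. With CpdA 37 of the 65 rose and 3 fell at an adjusted p under 0.05 (edgeR's quasi-likelihood test with Benjamini-Hochberg adjustment over all genes tested, called the edgeR test from here on). Over all genes tested 33.2% changed, 16.5% upward and 16.7% downward. These genes are highly expressed, and among the 2382 tested genes at or above the members' lower quartile of 91.9 CPM 56.5% changed, 30.1% upward and 26.5% downward. The 61.5% of members that changed is therefore near the share at their own level of expression. Their direction was one-sided beside that background: 56.9% rose and 4.62% fell. The 2 groups' values were fully separate for 44 of the 65, a count to be read against 65.3% of genes at that level and 43.9% of all genes.

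The shifts were small. The median log2 fold change (CpdA over medium) of the 65 genes was 0.10, against 0.0004 for all genes tested, and 54 of the 65 values were above 0. Of the 40 genes that changed, 32 did so by less than 1.2-fold. The 8 others all rose: Srsf7 and Sf3b4 by 1.30-fold, Srsf6 by 1.28-fold, and Hnrnpd, Hnrnpab, Srsf3, Prpf19 and Prpf31 by between 1.2-fold and 1.23-fold. Of the 40 calls, 33 held under all 14 alternative settings tried, and the 7 others were Prpf4b, Snrpa1, Prpf3, Hnrnph1, Prpf38a, Prpf39 and Srsf11, of which Prpf39 had the highest fold change at 1.10.

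**Figure D1:**
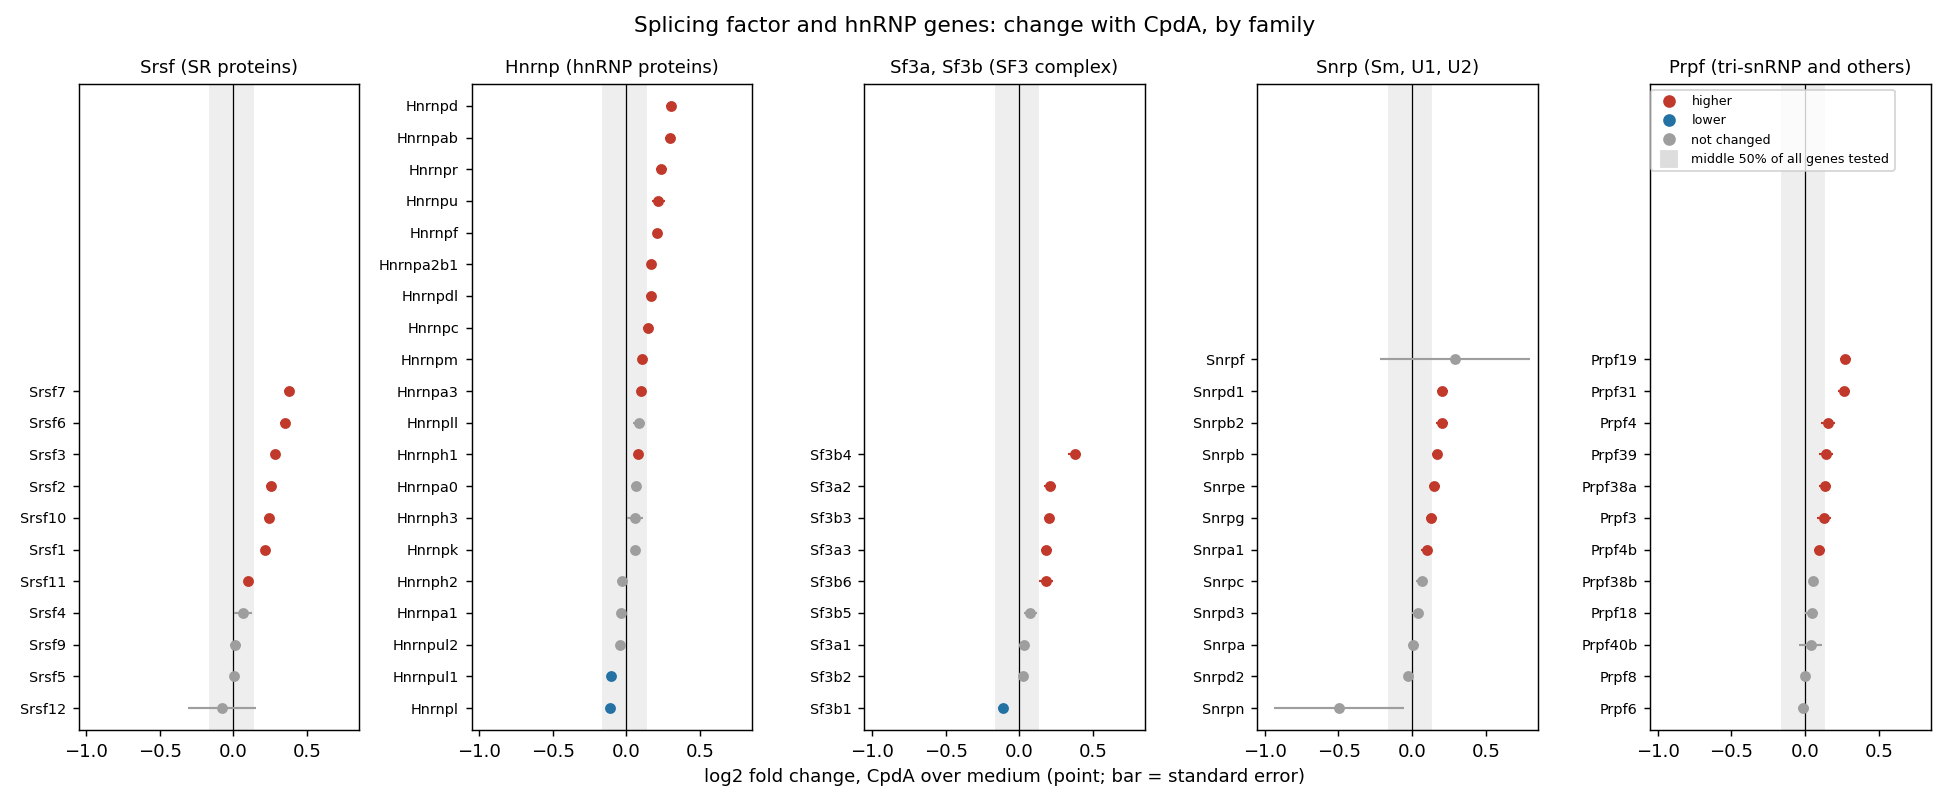
Log2 fold change (CpdA over medium, x axis) of the genes plotted, by family, with the standard error as a bar and the colour giving the call; the grey band holds the middle 50% of all genes tested. The red points of the genes that rose outnumber the blue points of Hnrnpl, Hnrnpul1 and Sf3b1, and Snrpf, Snrpn and Srsf12 have wide bars.

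Compared by their summed levels, the Srsf family shifted furthest. Summed over its members, the Srsf family measured 2110, 2101 and 2112 CPM in medium and 2456, 2387 and 2403 CPM with CpdA, a sum 14.6% higher. The Snrp sum was 8.08% higher, the Hnrnp sum 6.01%, the Prpf sum 5.99% and the Sf3 sum 4.34%. In each family the lowest CpdA library lay above the highest medium library. Such separation is common here: 65.3% of single genes at or above the members' lower quartile of level had it. Median log2 fold changes were 0.21 for Srsf, 0.18 for Sf3, 0.11 for Snrp, 0.10 for Prpf and 0.09 for Hnrnp. By the edgeR test 7 of 11 Srsf genes rose (63.6%), 8 of 13 Prpf (61.5%), 5 of 9 Sf3 (55.6%), 11 of 20 Hnrnp (55.0%) and 6 of 12 Snrp. Of all genes tested 16.5% rose, and of those at or above the members' lower quartile of level 30.1% did. The differences between families were not tested. Single abundant genes weigh on the sums: Sf3b1, which fell, gave 32.5% of the counts of its family, Prpf8 gave 37.1% of the Prpf counts and Srsf5 19.0% of the Srsf counts.

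**Figure D2:**
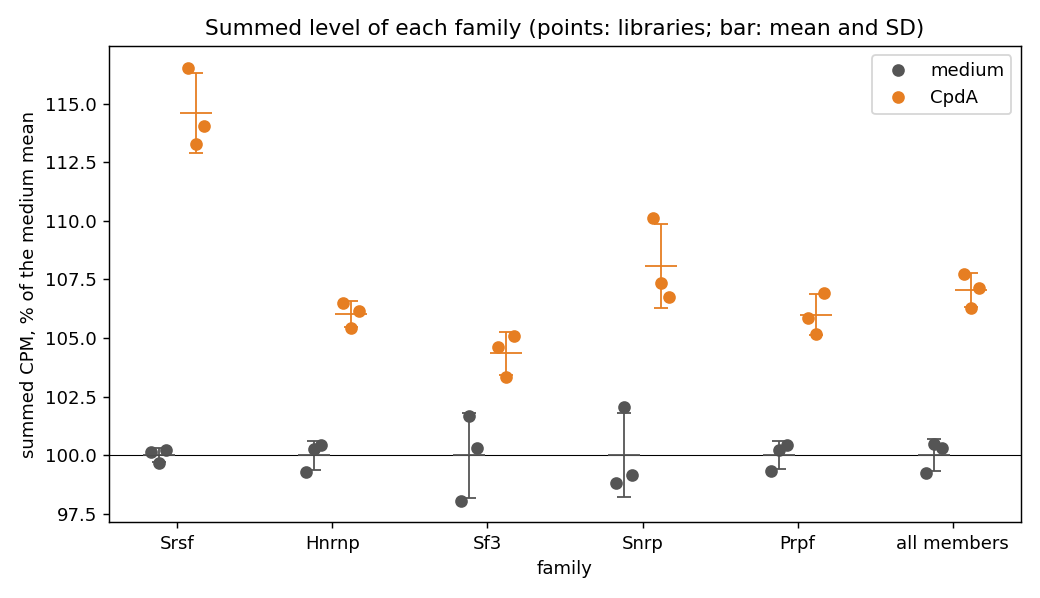
Summed CPM of each family in each library, as a percentage of the mean of the 3 medium libraries (y axis, not starting at 0), with the group mean and SD as bars. The CpdA libraries lie above all medium libraries in every family, and the rise is 14.6% for Srsf and between 4.34% and 8.08% for the others.

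Among the SR protein genes Srsf7, Srsf6, Srsf3, Srsf2, Srsf10, Srsf1 and Srsf11 rose and none fell. Srsf7 (ENSMUSG00000024097, chromosome 17, 80200089 to 80207305, GRCm38), whose protein also serves as an adaptor for mRNA export, measured 60.05, 64.2 and 61.5 FPKM (fragments per kilobase of gene, scaled to library size) in medium. With CpdA it measured 83.9, 80.3 and 78.5 FPKM. The groups lay well apart, and the log2 fold change was 0.38 ± 0.03 (SE; edgeR adjusted p = 1.77e-11). Srsf3 (ENSMUSG00000071172, chromosome 17, 29032673 to 29043366), the closest relative of Srsf7, measured 74.2, 75.2 and 74.99 FPKM in medium and 93.2, 91.3 and 90.3 FPKM with CpdA. The 3 medium values differed by about 1 FPKM, and the gene rose by a log2 value of 0.28 ± 0.03 (SE; edgeR adjusted p = 2.32e-10). Reads of Srsf3 may be divided with pseudogene copies, since 24.1% of its 50-base windows also occur in transcripts of other genes.

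Srsf6 rose, and its nearest relatives did not pass the test. Srsf4, Srsf5 and Srsf6 code for SR proteins of one structural subgroup, with a pair of RNA recognition motifs. Srsf6 (ENSMUSG00000016921, chromosome 2, 162931528 to 162937121) measured 47.1, 47.8 and 50.01 FPKM in medium and 64.7, 59.5 and 62.1 FPKM with CpdA. It rose by a log2 value of 0.35 ± 0.03 (SE; edgeR adjusted p = 6.28e-11). Srsf5, the SR gene with the highest level, measured 127, 119 and 122 FPKM in medium and 126, 124 and 122 FPKM with CpdA. Those ranges overlapped and its log2 fold change was 0.00 ± 0.03 (SE; edgeR adjusted p = 0.92). Srsf4 was at a mean of 11.3 FPKM with a log2 fold change of 0.07 ± 0.06 (SE; edgeR adjusted p = 0.435), and 1 CpdA library at 12.8 FPKM carried most of that value. Of the Srsf4 windows 49.9% also occur in Gm12992, which lies on the opposite strand and had 114 counts. Whether Srsf6 differed from Srsf5 in its change was not tested as such.

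The other SR genes that rose had tight replicates. Srsf1, which binds exonic enhancers and is also known to act in translation, measured 72.2, 72.5 and 73.7 FPKM in medium and 85.8, 84.9 and 84.1 FPKM with CpdA. Its log2 fold change was 0.21 ± 0.03 (SE; edgeR adjusted p = 7.71e-08). Its relative Srsf9 measured 93.5, 95.3 and 92.2 FPKM in medium and 97.5, 93.8 and 94.2 FPKM with CpdA, values that overlapped (edgeR adjusted p = 0.831). Srsf2, a marker protein of nuclear speckles, went from 69.0 ± 2.1 to 83.0 ± 2.5 FPKM (SD, n = 3), a log2 value of 0.26 (edgeR adjusted p = 1.45e-07). Of its windows 30.6% are shared with overlapping or copied genes, mostly Mettl23, which lies on the opposite strand. Srsf10, which acts as a general repressor of splicing when dephosphorylated, went from 43.3 ± 1.2 to 51.4 ± 0.6 FPKM, a log2 value of 0.24 (edgeR adjusted p = 1.39e-07). Srsf11 rose by 0.10, and Srsf12 was close to absent at a mean of 0.62 FPKM.

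SR proteins are activated and moved to the nucleus by phosphorylation of their arginine and serine repeats, the work of the Srpk and Clk kinases. In the list of 8 tested genes for these kinases and for SR protein transport, 0 rose and 4 fell, with a median log2 fold change of -0.08. Over all genes tested 16.7% fell, and among those at or above the median level 21.8% fell. At or above the members' lower quartile of level 26.5% fell. The difference of the list from these shares was not tested. Srpk1 measured 68.1, 64.8 and 65.8 FPKM in medium and 60.2, 61.1 and 61.0 FPKM with CpdA, and Clk3 measured 44.2, 45.2 and 44.7 FPKM in medium and 39.3, 41.6 and 41.0 FPKM with CpdA. Neither pair of groups overlapped. Srpk1 fell by 0.13 and Clk3 by 0.15 on the log2 scale (edgeR adjusted p = 0.000358 and 0.00191). Srpk2 fell by 0.17 (edgeR adjusted p = 0.00976) and Clk1 by 0.10 (edgeR adjusted p = 0.0179); these 2 were named after their values were seen, and the Clk1 groups overlapped. Clk2, Clk4, Dyrk1a and the transport gene Tnpo3 did not pass the test.

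**Figure D3:**
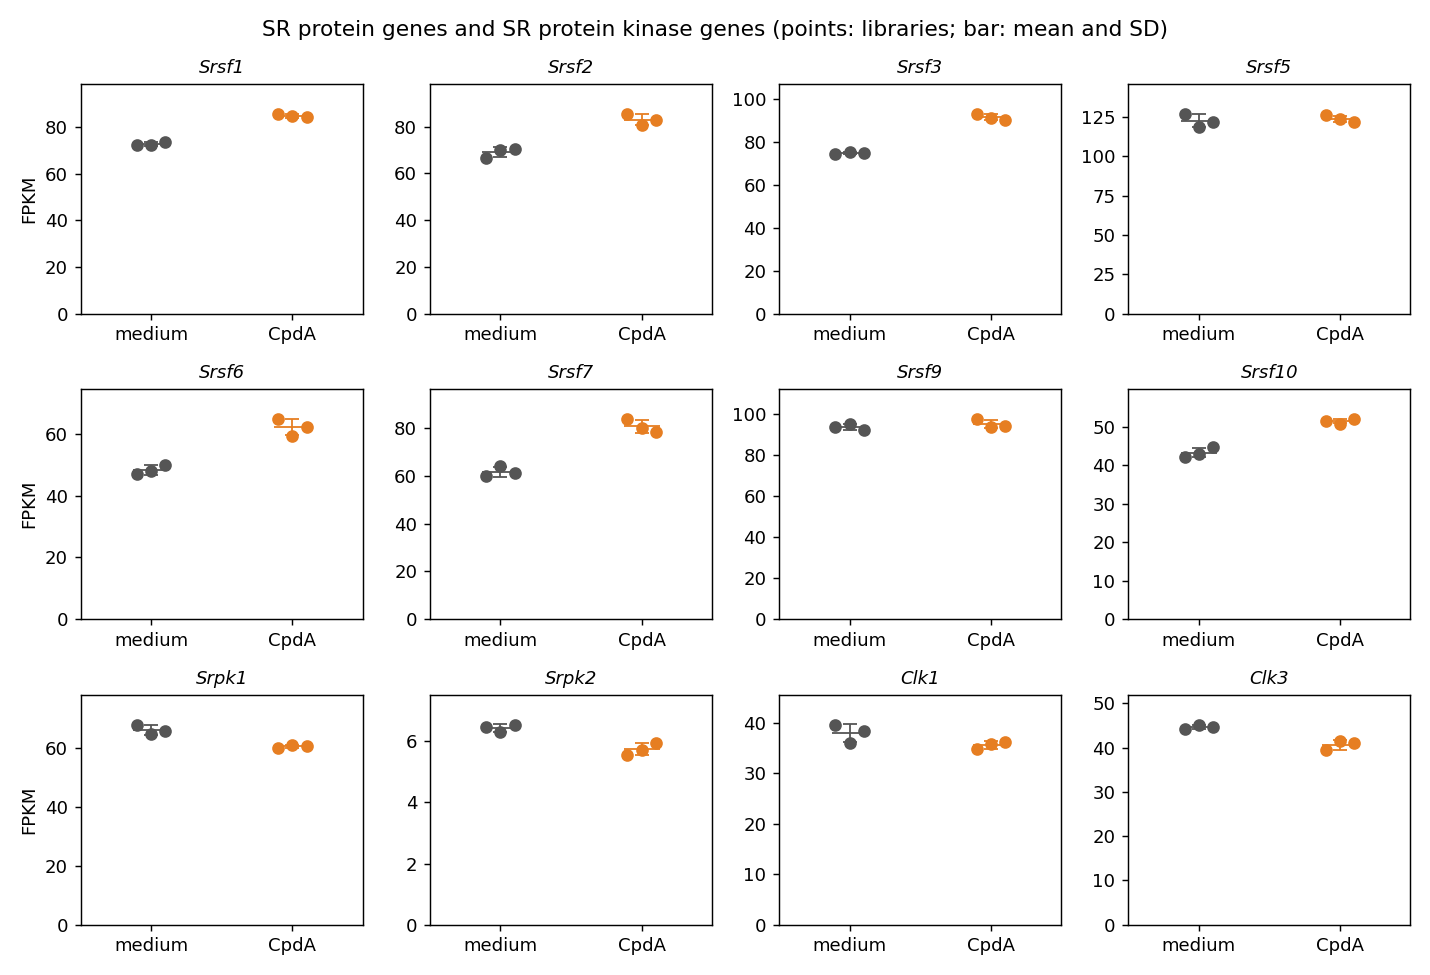
FPKM (y axis from 0) of 8 SR protein genes and of the kinase genes Srpk1, Srpk2, Clk1 and Clk3 in each library, grey for medium and orange for CpdA, with the mean and SD as bars. Srsf1, Srsf2, Srsf3, Srsf6, Srsf7 and Srsf10 lie higher in all CpdA libraries, Srsf5 and Srsf9 overlap, and the kinase genes lie lower with overlap for Clk1.

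Among the hnRNP genes 11 rose, Hnrnpl and Hnrnpul1 fell and 7 did not pass the test. Hnrnpd (AUF1, ENSMUSG00000000568, chromosome 5, 99958426 to 99978938), which binds AU-rich elements of short-lived mRNAs, measured 45.3, 47.5 and 44.7 FPKM in medium and 59.6, 53.8 and 57.2 FPKM with CpdA. The groups did not overlap, and the log2 fold change was 0.30 ± 0.03 (SE; edgeR adjusted p = 2.94e-09). Hnrnpab, a relative of Hnrnpd, measured 160.4, 174 and 159.8 FPKM in medium and 201, 196 and 213 FPKM with CpdA, a log2 value of 0.29 ± 0.03 (SE; edgeR adjusted p = 2.95e-09). Of its windows 23.8% are shared, nearly all with Phykpl on the opposite strand, which had 3919 counts beside the 61093 of Hnrnpab. Hnrnpr measured 13.6, 14.3 and 13.6 FPKM in medium and 16.6, 16.0 and 16.7 FPKM with CpdA, a log2 value of 0.24 ± 0.04 (SE; edgeR adjusted p = 1.16e-06). These were the 3 hnRNP genes that rose furthest.

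Of the genes for the classical core particle proteins, Hnrnpa2b1 and Hnrnpc rose and Hnrnpa1 did not pass the test. Hnrnpa1, which represses exons through silencer elements, had the highest level of all 65 genes and measured 837, 831 and 859.7 FPKM in medium and 833, 842 and 810.5 FPKM with CpdA. Those values overlapped, and its log2 fold change was -0.03 ± 0.03 (SE; edgeR adjusted p = 0.323). Copies limit this value, since 28.2% of its windows occur in other genes, most of them in the pseudogene Gm10052. Hnrnpa2b1 rose from 306 ± 8 to 346 ± 6 FPKM (SD, n = 3), a log2 value of 0.17 (edgeR adjusted p = 2.1e-06). Hnrnpc, which binds uridine tracts, rose from 135 ± 2 to 149.7 ± 2.4 FPKM, a log2 value of 0.14 (edgeR adjusted p = 9.39e-05). Hnrnpk, a protein that binds cytidine-rich RNA, was at 295 ± 1 and 309 ± 4 FPKM with separate groups, and missed the threshold (log2 value 0.06, edgeR adjusted p = 0.0773).

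Hnrnpl and Hnrnpll are both known for silencing the variable exons of Ptprc in T cells. Hnrnpl (ENSMUSG00000015165, chromosome 7, 28808541 to 28822266) measured 290.4, 279.7 and 279.4 FPKM in medium and 261, 265 and 267 FPKM with CpdA. All CpdA values were below all medium values, and the gene fell by 0.11 ± 0.03 (SE) on the log2 scale (edgeR adjusted p = 0.00136). Hnrnpll measured 20.5, 20.8 and 20.0 FPKM in medium and 21.6, 21.3 and 22.5 FPKM with CpdA, also without overlap, with a log2 value of 0.09 ± 0.04 (SE) that missed the threshold (edgeR adjusted p = 0.0834). Hnrnpul1, a relative of Hnrnpu, measured 121, 123 and 121 FPKM in medium and 112, 113 and 116 FPKM with CpdA and fell by 0.10 (edgeR adjusted p = 0.00312). Hnrnpu, a nuclear scaffold protein that binds both DNA and RNA, rose from 11.5 ± 0.8 to 13.5 ± 0.7 FPKM, a log2 value of 0.22 (edgeR adjusted p = 0.000186). Within the G-run binders Hnrnpf rose from 190.5 ± 5.1 to 222 ± 8 FPKM (log2 value 0.21, edgeR adjusted p = 2.86e-07), with 61.9% of its windows shared with other genes. Hnrnph1 rose by 0.08 (edgeR adjusted p = 0.025), a call that 3 of the 14 settings lost. Hnrnpdl, Hnrnpm and Hnrnpa3 rose by 0.17, 0.10 and 0.10, and Hnrnpa0, Hnrnph2, Hnrnph3 and Hnrnpul2 had log2 values between -0.04 and 0.06 that did not pass.

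Total transcripts of the pair of genes best known for splicing in T cells moved in opposite directions. Ptprc, the phosphatase CD45, measured 254, 241 and 249.6 FPKM in medium and 221, 228 and 228 FPKM with CpdA and fell by 0.15 on the log2 scale (edgeR adjusted p = 2.29e-05). Cd44, an adhesion receptor of activated T cells, measured 17.6, 19.0 and 17.7 FPKM in medium and 21.2, 21.6 and 22.0 FPKM with CpdA, a rise of 0.25 (edgeR adjusted p = 1.74e-06). Exon use in either gene was not measured by these counts.

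Both subcomplexes of SF3 held genes that rose, 5 in all, and 1 gene fell. Sf3b4 (ENSMUSG00000068856, chromosome 3, 96172332 to 96177564), an RNA-binding subunit of SF3b, measured 39.7, 44.6 and 40.4 FPKM in medium and 56.1, 52.6 and 54.5 FPKM with CpdA. Its log2 fold change was 0.38 ± 0.04 (SE; edgeR adjusted p = 3.36e-09), with the caution that 51.2% of its windows are shared, mostly with the pseudogene Gm7935. Sf3b3 (ENSMUSG00000033732, chromosome 8, 110810492 to 110846803) measured 54.0, 58.5 and 56.5 FPKM in medium and 66.2, 64.3 and 65.0 FPKM with CpdA, a rise of 0.20 ± 0.03 (SE; edgeR adjusted p = 2.32e-06). Sf3a2, a subunit of SF3a, measured 44.99, 49.1 and 44.3 FPKM in medium and 55.4, 51.4 and 54.2 FPKM with CpdA, a rise of 0.21 ± 0.04 (SE; edgeR adjusted p = 7.19e-05). Sf3a3 and Sf3b6 rose by 0.18 each, and Sf3b5 had a log2 value of 0.08 that did not pass.

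Sf3b1 (ENSMUSG00000025982, chromosome 1, 54985169 to 55027481), the large scaffold that grips the branch point duplex and a frequent site of mutation in blood cancers, went the other way. It measured 100.5, 97.1 and 99.9 FPKM in medium and 88.8, 94.5 and 93.7 FPKM with CpdA. The groups did not overlap, and the gene fell by 0.11 ± 0.03 (SE) on the log2 scale (edgeR adjusted p = 0.00177). None of its 50-base windows occurs in another gene. Sf3b2, the SF3 gene with the highest level, measured 97.7, 105 and 103 FPKM in medium and 107, 102 and 104 FPKM with CpdA, which overlapped (edgeR adjusted p = 0.557). Sf3a1 likewise overlapped, at 38.2 ± 1.5 and 39.3 ± 1.5 FPKM (edgeR adjusted p = 0.507).

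Among the Snrp genes for the Sm ring, which wraps the snRNA of most snRNPs, Snrpd1, Snrpb, Snrpg and Snrpe rose and Snrpd2, Snrpd3 and Snrpf did not pass the test. Snrpd1 (ENSMUSG00000002477, chromosome 18, 10617796 to 10628230) measured 134, 138 and 138 FPKM in medium and 158, 162 and 155 FPKM with CpdA, a rise of 0.20 ± 0.04 (SE; edgeR adjusted p = 1.42e-05). Snrpb measured 138, 148 and 139 FPKM in medium and 168, 154 and 158 FPKM with CpdA, a rise of 0.16 ± 0.03 (SE; edgeR adjusted p = 0.000119). Snrpg had the highest deposited FPKM of the family, computed on a length of 350 bases where the longest coding transcript has 1055, with 321, 300.4 and 314 FPKM in medium and 346, 346 and 338 FPKM with CpdA, a rise of 0.13 ± 0.04 (SE; edgeR adjusted p = 0.00519). Snrpe had a rise of 0.15, whereas Snrpd2 at 301 ± 3 and 297 ± 3 FPKM and Snrpd3 at 41.7 ± 1.1 and 43.0 ± 1.4 FPKM did not pass the test. The ring holds these proteins in equal numbers.

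Some Snrp proteins belong to U1 or U2 alone. Both U2 genes rose: Snrpb2 measured 35.6, 34.6 and 33.0 FPKM in medium and 40.4, 40.4 and 38.7 FPKM with CpdA, a log2 value of 0.20 ± 0.04 (SE; edgeR adjusted p = 0.000216). Snrpa1 rose by 0.10 (edgeR adjusted p = 0.0359), a call that 8 of the 14 settings lost. Neither U1 gene passed: Snrpa measured 81.9, 91.4 and 84.4 FPKM in medium and 89.8, 84.4 and 87.0 FPKM with CpdA (edgeR adjusted p = 0.911), and Snrpc was at 14.4 ± 0.5 and 15.2 ± 0.7 FPKM (edgeR adjusted p = 0.217). The difference between the U1 and U2 genes was not tested.

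A pair of Snrp genes had almost no reads. Snrpf codes for a core protein of the same Sm ring as Snrpg, yet it had 4, 6 and 14 counts in medium and 15, 12 and 5 with CpdA, a mean of 0.47 FPKM. Of its 50-base windows 89.5% also occur in transcripts of other genes, 58.5% in Ccdc38, which lies across it on the opposite strand and had 134 counts. No direction can be read from 56 counts, and how the reads of Snrpf were assigned was not tested; it was singled out after its values were seen. Snrpn, an imprinted gene for the neuronal Sm protein SmN, had 71 counts and a mean of 0.13 FPKM, and its log2 value of -0.50 ± 0.44 (SE) did not pass the test (edgeR adjusted p = 0.42). The GENCODE annotation lists 4 transcripts for this Snrpn entry, 0 of them coding. A separate entry of the same name shares 8.43% of its windows. RP24-439I22.1, which overlaps it on the same strand, had 3724 counts. The low count therefore may not give the level of all SmN transcripts.

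Of the 13 Prpf genes 8 rose and 0 fell. The genes of the U4/U6 particle, Prpf31, Prpf4 and Prpf3, all rose, whereas Prpf8 and Prpf6, of the U5 and tri-snRNP core, did not pass the test. Prpf31 (ENSMUSG00000008373, chromosome 7, 3629985 to 3642486), which holds the U4 snRNP together and is mutated in a form of retinitis pigmentosa, measured 22.1, 23.0 and 23.3 FPKM in medium and 29.4, 26.9 and 26.5 FPKM with CpdA. The groups were apart, with a log2 value of 0.26 ± 0.04 (SE; edgeR adjusted p = 6.88e-06). Prpf4 measured 10.5, 10.4 and 10.5 FPKM in medium and 12.2, 11.6 and 11.4 FPKM with CpdA, a rise of 0.15 ± 0.05 (SE; edgeR adjusted p = 0.00808). Prpf8, the large protein at the heart of the spliceosome, had the highest level of the family and measured 92.2, 96.3 and 95.7 FPKM in medium and 93.7, 94.4 and 97.5 FPKM with CpdA. Those values overlapped, with a log2 value of 0.00 ± 0.03 (SE; edgeR adjusted p = 0.96).

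Prpf19 (ENSMUSG00000024735, chromosome 19, 10895231 to 10909559), the ubiquitin ligase of the complex that stabilises the active spliceosome, rose furthest in the family. It measured 21.2, 23.9 and 21.3 FPKM in medium and 27.3, 26.1 and 27.4 FPKM with CpdA, a log2 value of 0.27 ± 0.04 (SE; edgeR adjusted p = 4.34e-07). The kinase gene Prpf4b had a log2 value of 0.10 and lay just inside the threshold (edgeR adjusted p = 0.0468), and 8 of the 14 settings lost that call. Prpf38a and Prpf39 rose by 0.13 and 0.14, while Prpf38b, Prpf18 and Prpf40b did not pass. The count for the family fell to between 5 and 7 of the 13 genes whichever library was left out, and was lowest without medium replicate 3.

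**Figure D4:**
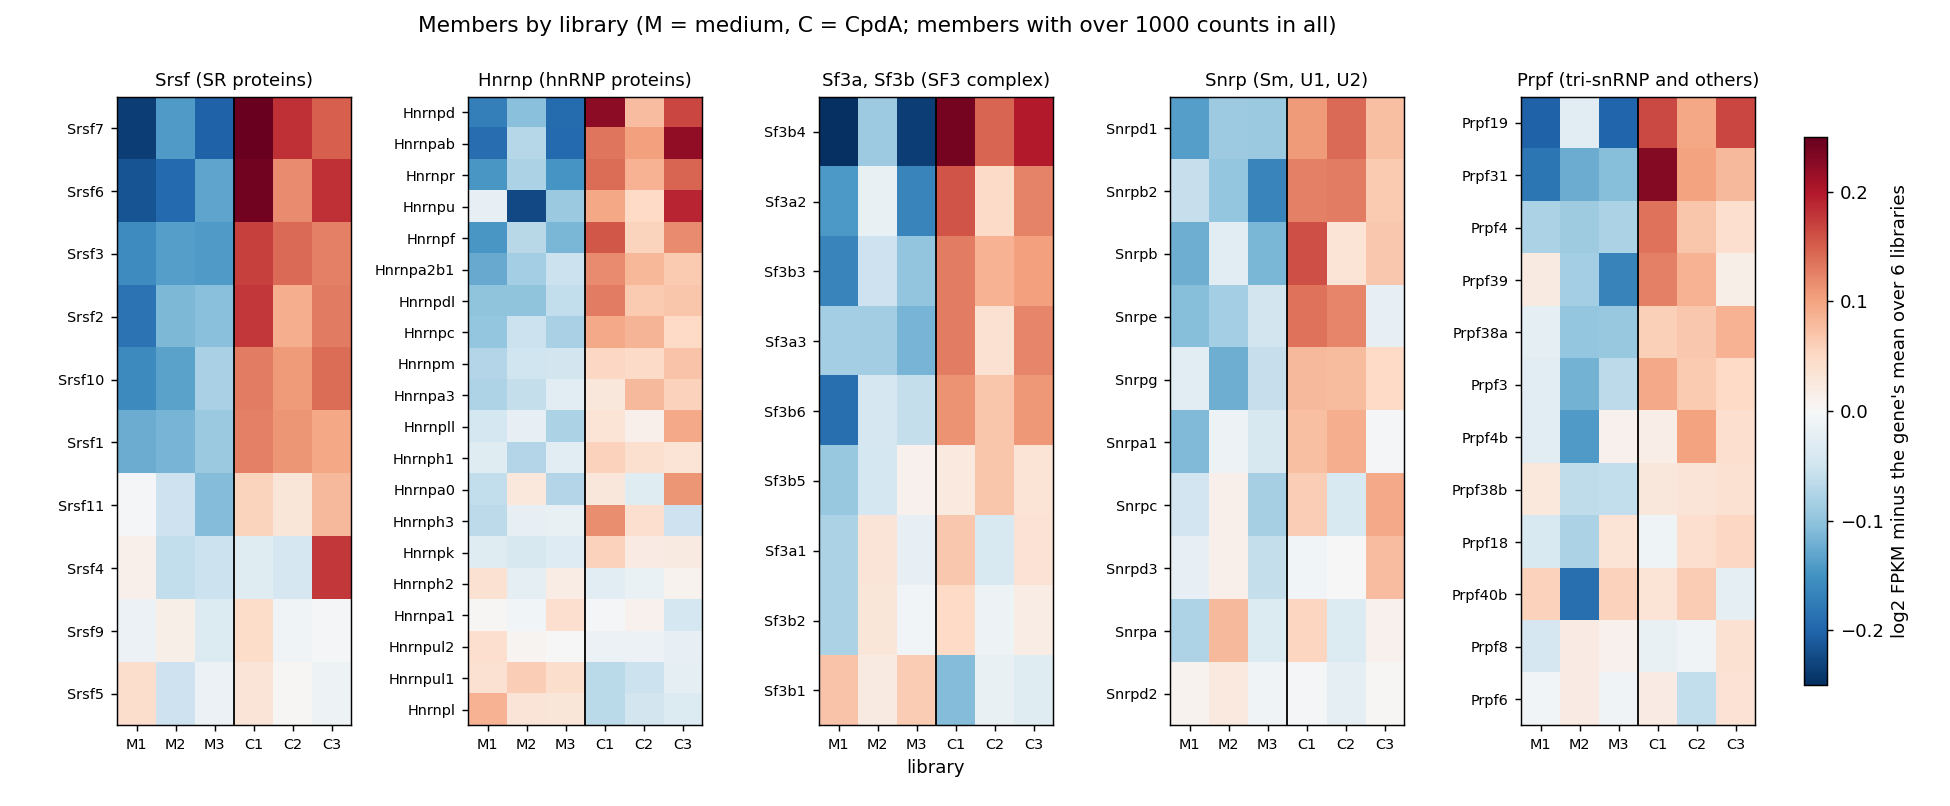
Log2 FPKM of the genes plotted, each with over 1000 counts, minus its mean over the 6 libraries (colour), by library (M for medium, C for CpdA) and family, genes ordered by fold change. The upper rows turn from blue to red between M3 and C1 in each family, and the bottom rows of Hnrnpl, Hnrnpul1 and Sf3b1 turn the other way.

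Other genes of the splicing pathway were followed in 10 lists arranged by role. Of 155 tested, 52 rose (33.5%) and 14 fell (9.03%), with a median log2 fold change of 0.06. Over all genes tested 16.5% rose and 16.7% fell. Among tested genes at or above the median level, 25.9% rose and 21.8% fell. At or above the members' lower quartile of level 30.1% rose and 26.5% fell, so part of the upward share goes with level. The difference between these 155 genes and the 65 genes was not tested. In the list for the SMN complex and its partners, which load the Sm ring onto snRNAs, 8 of 14 rose and 0 fell, among them Wdr77 (log2 value 0.33) and Strap (0.21). In the list for recognition of the end of the intron and the branch point, 10 of 17 rose and 1 fell. There U2af1, which reads the AG at the intron's end, rose by 0.28 and Phf5a, a small subunit of SF3b, by 0.32, while Rbm5 fell by 0.17. Phf5a sits in the same complex as Sf3b4 and Sf3b3.

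In the remaining lists fewer genes moved or both directions appeared. Their counts are to be read beside all genes tested, of which 16.5% rose and 16.7% fell. At or above the median level 25.9% rose and 21.8% fell. The difference of each list from these shares was not tested. In the list of 13 genes for further proteins of snRNPs and the tri-snRNP and their partners, 3 rose and 1 fell. Nhp2l1 rose by 0.29 and Snrnp40 by 0.20, and Snrnp25 of the minor spliceosome fell by 0.33 (a log2 value of -0.33). Of 10 LSm proteins 4 rose, among them Lsm1 and Lsm5, and Lsm4 fell by 0.16. Among 28 helicases and catalytic core proteins 5 rose (17.9%), Crnkl1 and Ddx39b among them, and Dhx16 fell by 0.16. The 20 U1 associated and SR-related proteins gave 4 higher and 3 lower: Tra2b, an SR-like protein, rose by 0.29 and Scaf4 by 0.15, and the speckle scaffold Srrm2 fell by 0.20 and Luc7l2 by 0.17. Of 10 exon junction genes 4 rose, with Magoh at 0.22 and Pnn at 0.16, and of 7 minor spliceosome genes 1 rose (14.3%), Zcrb1. In the helicase, U1 associated and SR-related, and minor spliceosome lists the share that rose was thus near that of all genes tested.

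Of 28 other regulators 13 rose and 3 fell. Syncrip, which codes for an hnRNP-like protein, rose from 26.0 ± 1.3 to 31.5 ± 0.4 FPKM (log2 value 0.26, edgeR adjusted p = 3.91e-08). The muscleblind genes parted, with Mbnl1 higher by 0.23 (edgeR adjusted p = 4.1e-08) and Mbnl2 lower, at -0.18 (edgeR adjusted p = 0.00143). Rbfox2 had the furthest fall in the list, from 1.39 ± 0.13 to 0.90 ± 0.10 FPKM (log2 value -0.62, edgeR adjusted p = 3.16e-05), from a low level.

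**Figure D5:**
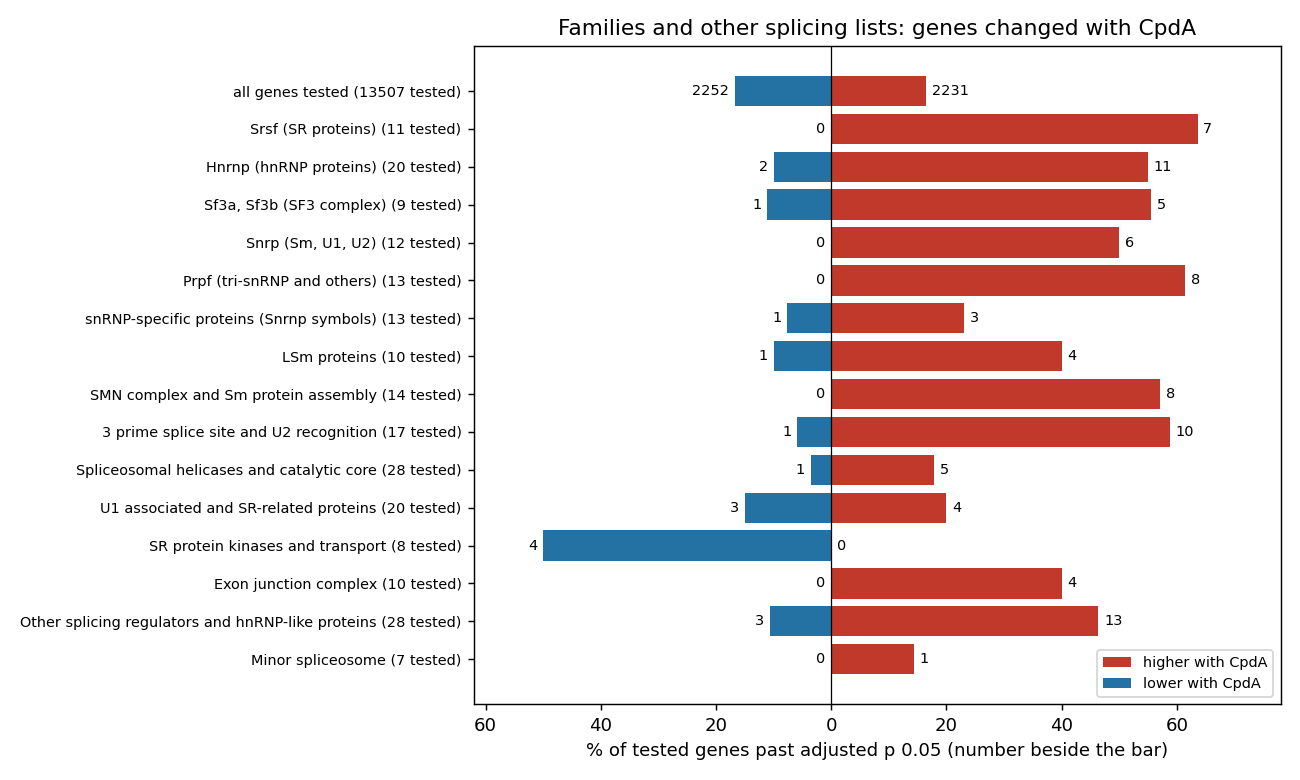
Share of tested genes that rose (red, to the right) or fell (blue, to the left) by the edgeR test, in percent, for all genes, the 5 families and the 10 lists of other splicing genes, with the number of genes beside each bar. The Srsf family reaches 63.6% upward against 16.5% for all genes. Among tested genes at or above the members' lower quartile of level, which are not plotted, 30.1% rose. The list of SR protein kinases and transport has 4 of 8 genes lower and 0 higher, beside 16.7% lower for all genes.

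Many genes of these families are known to limit their own output by splicing in an exon that sends the transcript to nonsense-mediated decay. A GENCODE annotation of GRCm38 lists such a decay transcript for 9 of the 11 Srsf genes (81.8%), 10 of 20 Hnrnp, 7 of 13 Prpf, 5 of 12 Snrp and 1 of 9 Sf3 genes. Over all protein coding genes tested the share was 28.9%, and over the 65 genes 49.2%. The number of annotated transcripts per gene differed as well, with a median of 5 over protein coding genes tested and 6 over the 65 genes. The medians were 7 for Srsf, 8 for Hnrnp, 8 for Prpf, 4.5 for Snrp and 4 for Sf3. The shares were not adjusted for these numbers. Of the 65 genes, 19 of 32 with a decay transcript rose and 2 fell, and 18 of 33 without one rose and 1 fell. The median log2 fold change was 0.10 in both sets. Counts per gene do not part decay transcripts from coding ones.

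Sequence shared with other genes was checked for all 65 genes, since the sources used here do not say how such reads were counted. In 12 genes over 20% of the 50-base windows also occurred in transcripts of another gene, and 7 of those rose and 0 fell, with a median log2 fold change of 0.16. Of the 53 others 30 rose and 3 fell (56.6% higher), with a median log2 fold change of 0.10. The 12 genes included Hnrnpa3 (27.7% of windows shared), Hnrnpk (25.3%), Snrpa (23.5%) and Hnrnpm (21.0%). For Snrpc, Hnrnpa2b1 and Srsf5 the deposited gene length is over 2 times that of the longest coding transcript, and for Snrpg, Snrpd2 and Hnrnpr the longest coding transcript is over 2 times the deposited length. The FPKM of these 6 genes therefore depends on which form the cells express.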

How the data were processed

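RNA from 3 medium and 3 CpdA libraries was analysed from a single deposited table of 21139 genes. Per the file headers it holds raw read counts per gene and library, not normalized, and FPKM values that the authors computed. Dividing the counts by the deposited gene length and library total matched each FPKM to a relative difference of at most 1.86e-07. CASAVA 1.8 and the builds mm10 and GRCm38 come from the submitters' processing notes. No aligner, counter or strand setting is given in the sources used here. Groups were taken from the labels.

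The counts were tested in R 4.3.3 with the quasi-likelihood test of edgeR 4.0.16 (TMM scaling, no covariates, robust dispersions). The filter was filterByExpr with a minimum count of 10 and total of 15, which left 13507. Benjamini-Hochberg adjustment ran over all of these, with a threshold of 0.05. Standard errors of log2 fold changes were worked back from the fold change and the F statistic of the test. They restate that test and are not a separate measure of spread. Levels are deposited FPKM, and sums are CPM of the library total. In the shallowest library a count of 0 leaves room for 0.148 CPM (3 counts, counting error only). The steps were also run on simulated counts, with larger fold changes than most of those reported here. That run therefore does not bear on the small shifts. Alternatives were DESeq2 1.42.0, its size factors, library size alone, limma-voom (limma 3.58.1), other filters, a replicate block, removal of a gene length trend and leaving out each library.

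Named genes are, in each family, the 3 highest and 3 lowest changed, the highest in FPKM, those that moved against the majority and a list of well-known members; in each other list, the 2 changed genes of smallest p in each direction; and Ptprc and Cd44. The other members, and Srpk2, Clk1, Clk2, Clk4, Dyrk1a and Tnpo3, lie outside that rule and were named after their values were seen. A gene that enters the counts and sums is not reported here by name or plotted alone. The comparison with genes of like level was also added after the data were seen. The members and lists were chosen with earlier results of these data known. Qk, listed in 2 rows, was left out of its list. Shared sequence was searched with 50-base windows of GENCODE transcripts.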

Additional observations from a re-analysis of the deposited data

How the results depend on the processing

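Between 35 and 41 of the 65 genes changed over the 14 alternative settings, 32 to 38 upward and 3 downward in each. With the replicate number as a block 36 changed. Correlations of same-numbered libraries, taken on deviations from each group's mean, were -0.0213, -0.0147 and -0.000561. They show no shared effect of the number, but with 3 libraries per group they cannot exclude that the samples were paired. Leaving out each library in turn gave 5 to 7 Prpf genes changed, all of them higher; the lowest count came without medium replicate 3. Genes that never passed the test changed sign around 0. Srsf5 (0.00) was at -0.0047 under the filter of 5 CPM in 3 libraries and -0.007 with the length trend removed, and between -0.0162 and 0.0315 without single libraries (-0.0059 without CpdA replicate 1). Without single libraries Sf3b2 ran from -0.0021 to 0.051. Prpf8 was at 0.007 with library size alone, 0.001 with DESeq2, 0.002 with no count filter, 0.0585 with the length trend removed, and ran from -0.0212 to 0.0104 without single libraries (0.0074 without medium replicate 3, 0.0103 and 0.0042 without CpdA replicates 1 and 2). Snrpa was at -0.0022 with the CPM filter, -0.0152 with the length trend removed, and ran from -0.0242 to 0.0558 without single libraries (-0.0036 without medium replicate 3, -0.0131 without CpdA replicate 1). The cause was not tested. Of 516 values for named members 482 kept direction and side of the threshold. Few counts limit Snrpf, Snrpn and Srsf12; the part of shared sequence in those of Snrpf was not tested.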

Other observations

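The pseudogene Hnrnpa1l2-ps, whose symbol begins as the hnRNP genes do, had 4, 5 and 3 counts in medium and 2, 12 and 6 counts with CpdA, too few to read a direction from.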
